A study of Mus musculus with 18 samples.

Results

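Vimentin, nestin, the simple keratins and the lamins are the intermediate filament genes examined here. The members were the 9 gene symbols Vim, Nes, Krt7, Krt8, Krt18, Krt19, Lmna, Lmnb1 and Lmnb2, all of which were among the 18397 genes of the gene expression table. RNA-seq was carried out on 18 mouse libraries in 6 groups of 3, named Soft, Soft+mito, Soft-TW, Stiff, Stiff+mito and Stiff-TW in the labels. The labels give every library the cell type RAW264.7, a mouse macrophage-like cell line, and call the 3 libraries of a group biosamples without saying whether they came from separate cultures. The p-values below therefore describe library-to-library spread, part or all of which may be technical. The series title concerns stiffness-related transfer of mitochondria, and the group names set a soft against a stiff matrix, each plain, with "mito" and with "TW". The names join mito with a plus and TW with a hyphen, and do not say that TW is something added. Below, "without addition" and "no addition" mean the plain Soft and Stiff groups. Neither abbreviation is explained in the labels, where stiffness values, doses, times and genotypes are also not given.

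Intermediate filaments are rope-like polymers built from coiled-coil proteins. Vimentin is the main filament protein of mesenchymal and blood-derived cells, and nestin is a long partner that needs vimentin-type proteins to form filaments. Keratins assemble as obligate pairs of a type I chain (Krt18, Krt19) with a type II chain (Krt7, Krt8), and Krt8 with Krt18 is the pair typical of simple epithelia. Lamins form the meshwork under the inner nuclear membrane. Lmna encodes the A-type lamins A and C, made by alternative splicing, and Lmnb1 and Lmnb2 encode the B-type lamins. In macrophages vimentin and the lamins are well known, whereas simple keratins are usually described in epithelial cells.

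The deposited counts summed to between 16054637 and 16887244 per library. The 10 macrophage markers listed stood at unlike levels. Cd14 was at 20.1 to 34.2 TPM (a level corrected for transcript length and library size), Lyz2 at 5.07 to 30.8 TPM and Cd68 at 3.95 to 15.0 TPM over the libraries, while Csf1r reached at most 1.1 TPM, Adgre1 at most 0.14 TPM and Ptprc at most 0.27 TPM in any library. Tyrobp and Fcer1g reached 3.61 and 2.74 TPM and were at 0 in all 3 Soft libraries. Whether the cell type label holds was not tested, and the cells are called here the cells labelled RAW264.7. The epithelial markers Epcam and Cdh1 were also near 0, at no more than 0.1 and 0.34 TPM. These genes were named after their values were seen. The 10 macrophage markers together summed to 31.2 to 82.4 TPM per library, the 8 epithelial markers to 0.69 to 1.51 TPM and the 8 fibroblast markers to 60.8 to 148 TPM. In bulk RNA, a change in the number of cells of a type cannot be told apart from a change in RNA per cell.

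Of the 9 members, 7 passed the filter on low counts and were tested together with all 12245 genes that passed. Vim was the most abundant member, with only 56 genes of the table at a higher mean TPM. Krt8, Lmna and Krt18 came next, with 260, 350 and 526 genes above them, and Nes, Lmnb1 and Lmnb2 lay between 19.5 and 62.8 TPM in every library. Krt7 and Krt19, the other simple keratins on the list, did not pass the filter. Krt7 had 0 to 3 reads per library, 14 in all, and was at 0 in 7 libraries. Krt19 had 0 to 1 reads per library, 4 in all, and was at 0 in 14 libraries. A count of 0 in a library allows up to 3 reads, which corresponds to 0.21 to 0.24 TPM for Krt7 and 0.27 to 0.48 TPM for Krt19, and covers counting error only. No library exceeded 3 reads of Krt7 (0.23 TPM) or 1 read of Krt19 (0.16 TPM), so no difference between groups was detectable at this depth and no fold change is given for either. The keratin pair present at high levels was thus Krt8 with Krt18. Krt8 was at 431 to 730 TPM and Krt18 at 233 to 319 TPM.

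**Figure D1:**
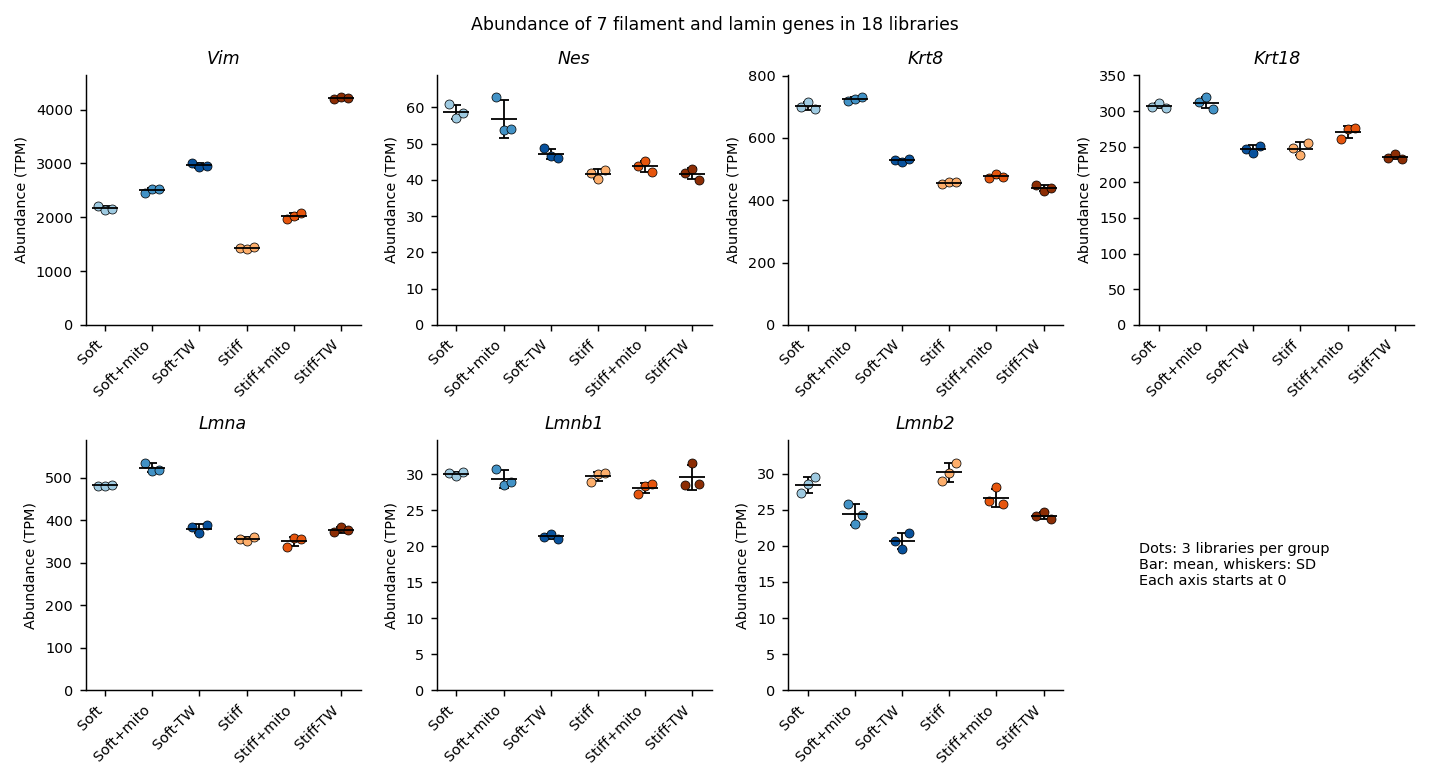
Abundance in TPM (vertical axes, each from 0) of the 7 tested genes in the 18 libraries by group (horizontal axes). Dots are libraries, bars are means of 3 and whiskers are SD. Vim is lowest in Stiff (mean 1426 TPM) and highest in Stiff-TW (mean 4217 TPM), and Lmnb1 stands apart in Soft-TW (mean 21.4 TPM) with the other 5 groups near 30 TPM.

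Vim, encoding vimentin, varied more between the groups than any other member. In the soft groups its level was 2208, 2133 and 2156 TPM in the Soft libraries, 2457, 2530 and 2526 TPM in the Soft+mito libraries and 3013, 2939 and 2944 TPM in the Soft-TW libraries. In the stiff groups it was 1420, 1413 and 1444 TPM in the Stiff libraries, 1962, 2022 and 2071 TPM in the Stiff+mito libraries and 4197, 4229 and 4224 TPM in the Stiff-TW libraries. From low to high the order was Stiff, Stiff+mito, Soft, Soft+mito, Soft-TW and Stiff-TW, and no library of a group overlapped with a library of the next. A lack of overlap was common among all tested genes in scaled counts. It held for 37.6% of them in Soft+mito against Soft, 58.2% in Stiff against Soft and 72.2% in Stiff-TW against Stiff. Within each matrix the level was lowest without addition, higher with mito and highest with TW.

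The stretch before the Vim start is shown because Vim moved apart from the other filament genes. The Vim gene lies at chr2:13574311-13582826 in GRCm38.p6 (the RefSeq table used for positions and sequences), and the 250 bases upstream of its start are at chr2:13574061-13574310, plus strand. Capitals mark matches to 4 promoter motifs searched on both strands: the TATA box as TATAAA, the CCAAT box as its own letters, the GC box as GGGCGG and the AP-1 motif as TGANTCA.
Vim: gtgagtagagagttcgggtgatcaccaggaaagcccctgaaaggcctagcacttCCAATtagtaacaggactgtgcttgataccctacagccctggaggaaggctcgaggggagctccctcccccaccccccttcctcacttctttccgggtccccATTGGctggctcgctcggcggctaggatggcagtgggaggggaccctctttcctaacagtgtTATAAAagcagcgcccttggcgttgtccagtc
A TATAAA match lies 32 bases before the start, and CCAAT matches lie 196 and 94 bases before it, the nearer one as its reverse complement ATTGG. Of all 32851 upstream windows of this length, 12.4% hold a TATAAA match, 33.8% a CCAAT match, 32.7% a GGGCGG match and 6.75% an AP-1 motif match. A match describes the letters only.

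The comparison of Stiff with Soft asks how the matrix related to the filament genes in the plain groups. Vim fell to 0.694-fold on the stiff matrix (log2 fold change -0.53 ± 0.019 SE, edgeR quasi-likelihood test, adjusted p = 6.45e-42). With mito on both matrices the Stiff+mito libraries were again lower than the Soft+mito libraries, at 0.800-fold (log2 fold change -0.32 ± 0.019, adjusted p = 1.21e-27). With TW the direction was the opposite. Vim was 1.44-fold higher in Stiff-TW than in Soft-TW (log2 fold change 0.53 ± 0.019, adjusted p = 1.03e-42). These 3 comparisons use different libraries, whereas the comparisons with mito and with TW below share the Soft or Stiff libraries as their control.

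Vim rose with mito on both matrices, and rose more with TW. With mito the rise was 1.23-fold on the soft matrix (log2 fold change 0.30 ± 0.019, adjusted p = 3.99e-25) and 1.42-fold on the stiff matrix (0.51 ± 0.019, adjusted p = 3.6e-40). The difference between these rises was 0.21 ± 0.027 on the log2 scale (mito by matrix interaction, adjusted p = 2.06e-09). With TW the rise was 1.48-fold on the soft matrix (0.56 ± 0.019, adjusted p = 1.2e-44) and 3.07-fold on the stiff matrix (1.62 ± 0.019, adjusted p = 2.12e-80). The TW difference was thus larger on the stiff matrix by 1.06 ± 0.027 on the log2 scale (TW by matrix interaction, adjusted p = 8.1e-53).

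Set against all tested genes, the TW difference of Vim on the stiff matrix was among the larger ones. In Stiff-TW against Stiff 167 of the tested genes, 1.36%, had a higher log2 fold change than Vim, where 69.6% of all genes passed the test and 18.0% did so with a change of at least 1.5-fold. For the TW by matrix interaction, 132 genes (1.08%) had a higher value than Vim. The marker sums of other cell types also moved with TW and with mito. The macrophage markers summed to 39.4 ± 0.0889 TPM in Soft, 81.5 ± 0.816 in Soft-TW, 32.5 ± 2.2 in Stiff and 54.1 ± 1.11 in Stiff-TW (SD, n = 3). All 6 tested markers of that list were higher with TW on the soft and the stiff matrix, where 28.9% and 35.5% of all tested genes were higher. Low ones among the 6, such as Csf1r, may have passed the low-count filter only through the TW groups, where they were highest. The count of 6 is therefore not independent of that filter. The fibroblast markers summed to 69.1 ± 1.52 TPM in Soft, 103 ± 1.04 in Soft-TW, 85.8 ± 0.609 in Stiff and 147 ± 1.88 in Stiff-TW, and 2 of 5 tested markers rose with TW on the soft matrix and 4 of 5 on the stiff one, where Pdgfrb fell. Pdgfra, a growth factor receptor of mesenchymal cells, rose with TW in both (log2 fold changes 1.05 and 1.38). Csf1r, on the macrophage list, stayed at low levels and averaged 0.0533 TPM in Soft, 0.83 in Soft-TW, 0.09 in Stiff and 0.31 in Stiff-TW. Tyrobp, which was not tested, averaged 0 TPM in Soft, 3.00 in Soft-TW, 0.13 in Stiff and 0.473 in Stiff-TW.

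With mito the macrophage markers summed to 50.8 ± 2.69 TPM on the soft and 40.5 ± 1.42 TPM on the stiff matrix. Of the 6 tested, 4 rose on the soft and 3 on the stiff matrix, and none fell. Among all tested genes, 26.7% passed on the soft matrix (14.8% higher, 11.9% lower) and 33.5% on the stiff one (15.6% higher, 17.8% lower). Lyz2, lysozyme, rose by 0.84 and 0.42 on the log2 scale, Cd68 by 0.42 and 0.69, and Cd14 by 0.32 and 0.20. The fibroblast markers summed to 62.3 ± 1.94 TPM in Soft+mito and 102 ± 3.40 TPM in Stiff+mito, where 2 of 5 fell and 4 of 5 rose. The part of these markers in the Vim results was not tested.

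**Figure D2:**
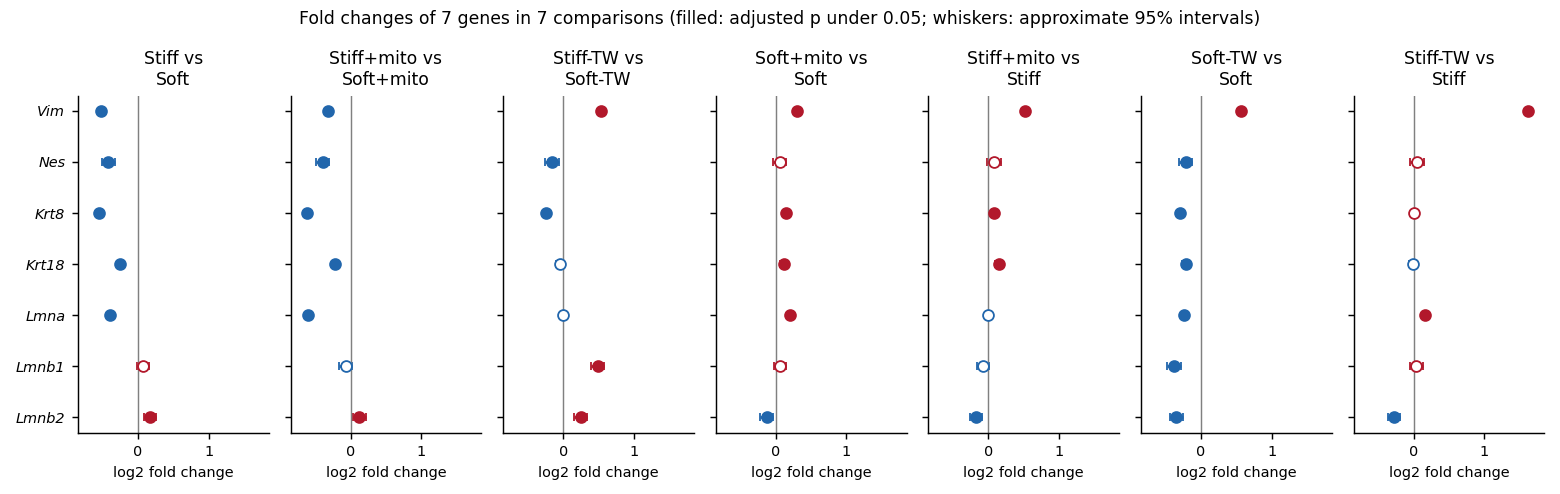
The log2 fold changes (horizontal axes) of the 7 tested genes (rows) in 7 comparisons (panels), from edgeR. Filled symbols passed an adjusted p of 0.05, open symbols did not, red is higher and blue lower in the group named first, and whiskers are approximate 95% intervals. Vim is lower on the stiff matrix in the first 2 panels, higher on it in the third, and higher in all 4 panels on the right.

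Krt8, the type II chain of the simple keratin pair, followed the matrix in all 3 conditions. Its level was 698, 717 and 694 TPM in the Soft libraries, 718, 724 and 730 TPM in Soft+mito and 530, 522 and 532 TPM in Soft-TW. On the stiff matrix it was 453, 457 and 458 TPM in Stiff, 472, 483 and 473 TPM in Stiff+mito and 449, 431 and 438 TPM in Stiff-TW. Every soft library was thus above every stiff library. The share of all tested genes that separate in this way was not computed. Within single conditions, stiff and soft libraries did not overlap in scaled counts for 58.2% of genes without addition, 65.4% with mito and 59.9% with TW. Krt8 fell to 0.683-fold in Stiff against Soft (log2 fold change -0.55 ± 0.021, adjusted p = 8.96e-45), to 0.653-fold in Stiff+mito against Soft+mito (-0.61 ± 0.021, adjusted p = 1.01e-49) and to 0.845-fold in Stiff-TW against Soft-TW (-0.24 ± 0.022, adjusted p = 3.11e-18).

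Krt18, the type I partner, moved the same way as Krt8 in the comparisons of Stiff with Soft and of Stiff+mito with Soft+mito, with a smaller fold. It was at 306, 311 and 305 TPM in Soft, 312, 319 and 303 TPM in Soft+mito and 247, 242 and 252 TPM in Soft-TW. On the stiff matrix it was at 248, 238 and 256 TPM in Stiff, 261, 275 and 276 TPM in Stiff+mito and 234, 239 and 233 TPM in Stiff-TW. The Soft and Soft+mito libraries were the highest and overlapped with each other, and the Soft-TW and Stiff libraries overlapped. Krt18 fell to 0.842-fold in Stiff against Soft (log2 fold change -0.25 ± 0.027, adjusted p = 7.56e-14) and to 0.860-fold in Stiff+mito against Soft+mito (-0.22 ± 0.026, adjusted p = 3.74e-12). In Stiff-TW against Soft-TW its log2 fold change was -0.04, with an approximate 95% interval of -0.10 to 0.01 (adjusted p = 0.192), and it passed with library totals as the scale (-0.07, adjusted p = 0.0175).

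The upstream stretches of Krt8 and Krt18 are shown as those of a keratin pair that is encoded side by side. In GRCm38.p6 Krt8 lies at chr15:101996711-102004342 on the minus strand and Krt18 at chr15:102028216-102032026 on the plus strand, so that the starts point away from each other and are 23874 bases apart. The windows are chr15:102004343-102004592 (minus strand) and chr15:102027966-102028215 (plus strand), and neither holds a match to the 4 motifs searched for Vim.
Krt8: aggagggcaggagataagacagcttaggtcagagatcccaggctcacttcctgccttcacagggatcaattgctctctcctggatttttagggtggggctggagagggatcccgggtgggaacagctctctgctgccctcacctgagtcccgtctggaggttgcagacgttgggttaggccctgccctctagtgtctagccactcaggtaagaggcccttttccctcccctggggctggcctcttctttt
Krt18: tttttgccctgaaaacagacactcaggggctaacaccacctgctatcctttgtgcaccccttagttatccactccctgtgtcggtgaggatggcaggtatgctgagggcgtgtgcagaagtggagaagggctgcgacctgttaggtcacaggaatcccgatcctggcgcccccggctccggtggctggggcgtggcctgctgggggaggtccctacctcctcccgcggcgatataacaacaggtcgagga
Of the 9 members, 7 had a window in the RefSeq table that was used.

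The difference of the keratin pair with TW depended on the matrix. In Soft-TW against Soft, Krt8 fell to 0.809-fold (log2 fold change -0.31 ± 0.021, adjusted p = 2.49e-25) and Krt18 to 0.864-fold (-0.21 ± 0.027, adjusted p = 3.86e-11). In Stiff-TW against Stiff neither passed the test, with log2 fold changes of 0.00 ± 0.022 for Krt8 (interval -0.04 to 0.05, adjusted p = 0.951) and -0.01 ± 0.028 for Krt18 (interval -0.06 to 0.05, adjusted p = 0.863). On the TPM scale, tested with limma, these values were -0.05 and -0.07, and both passed (adjusted p = 0.0177 and 0.0359). The median of all genes in Stiff-TW against Stiff on that scale was -0.04. The difference between the matrices passed the test for both, at 0.31 ± 0.030 for Krt8 (adjusted p = 1.65e-15) and 0.20 ± 0.039 for Krt18 (adjusted p = 7.07e-06).

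With mito the changes of the keratins were small. In Soft+mito against Soft, Krt8 was 1.10-fold higher (log2 fold change 0.14 ± 0.021, adjusted p = 4.48e-08) and Krt18 1.08-fold higher (0.11 ± 0.026, adjusted p = 3.73e-04) by edgeR on scaled counts. On the TPM scale, tested with limma, these rises were 0.04 and 0.02 and neither passed, and the Krt18 libraries of the groups overlapped. In Stiff+mito against Stiff, Krt8 was 1.05-fold higher (0.07 ± 0.022, adjusted p = 0.00627) and Krt18 1.10-fold higher (0.14 ± 0.028, adjusted p = 1.17e-05). The Krt8 call was lost without the second Stiff+mito library, where the log2 fold change was 0.06. Neither interaction of mito with the matrix passed the test for Krt8 or Krt18 (adjusted p = 0.105 and 0.618), although that of Krt8 passed without the second Soft library (-0.09) or the first Soft+mito library (-0.08).

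The balance between the chains of the pair moved with the matrix. The ratio of type I to type II keratins in TPM (Krt18 and Krt19 over Krt7 and Krt8) was 0.437 ± 0.00249 in Soft, 0.431 ± 0.0133 in Soft+mito and 0.467 ± 0.0052 in Soft-TW (SD, n = 3). The Stiff libraries averaged 0.542 ± 0.0196, the Stiff+mito libraries 0.568 ± 0.0153 and the Stiff-TW libraries 0.536 ± 0.0178. All 9 stiff libraries lay above all 9 soft libraries. The mean log2 difference between stiff and soft was 0.30, with p = 0.00025 in a two-sided exact permutation test within conditions, the smallest value that test can give, and 0.0015 after Benjamini-Hochberg adjustment over the 12 ratio tests. With mito and with TW the mean log2 differences of this ratio over the matrices were 0.02 and 0.04, and neither passed (adjusted exact permutation p = 0.48 and 0.187). The signs differed between the matrices. With mito the difference was -0.02 on the soft and 0.07 on the stiff matrix. With TW it was 0.10 on the soft matrix, where the Soft-TW libraries were all above the Soft libraries, and -0.02 on the stiff one. The matrices were not tested singly.

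Relative to vimentin, the keratins were lowest with TW. The summed TPM of the 4 simple keratins over that of Vim was 0.467 ± 0.014 in Soft, 0.414 ± 0.00516 in Soft+mito and 0.261 ± 0.0043 in Soft-TW, and on the stiff matrix it was 0.493 ± 0.000953 without addition, 0.370 ± 0.00729 with mito and 0.160 ± 0.00219 with TW. The libraries without addition were the highest and the TW libraries the lowest on each matrix, without overlap. The mean log2 difference was -0.29 with mito and -1.23 with TW, each with an exact permutation p of 0.005, the smallest possible, and an adjusted p of 0.00857. The TW difference was -0.84 on the soft and -1.62 on the stiff matrix. By edgeR, Vim was 3.07-fold higher with TW on the stiff matrix and neither Krt8 nor Krt18 passed. The ratio there therefore mostly restates the Vim difference. Stiff against soft gave -0.26 on average (exact permutation, adjusted p = 0.0248), but the sign differed between the conditions: 0.08 without addition, -0.16 with mito and -0.71 with TW.

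**Figure D3:**
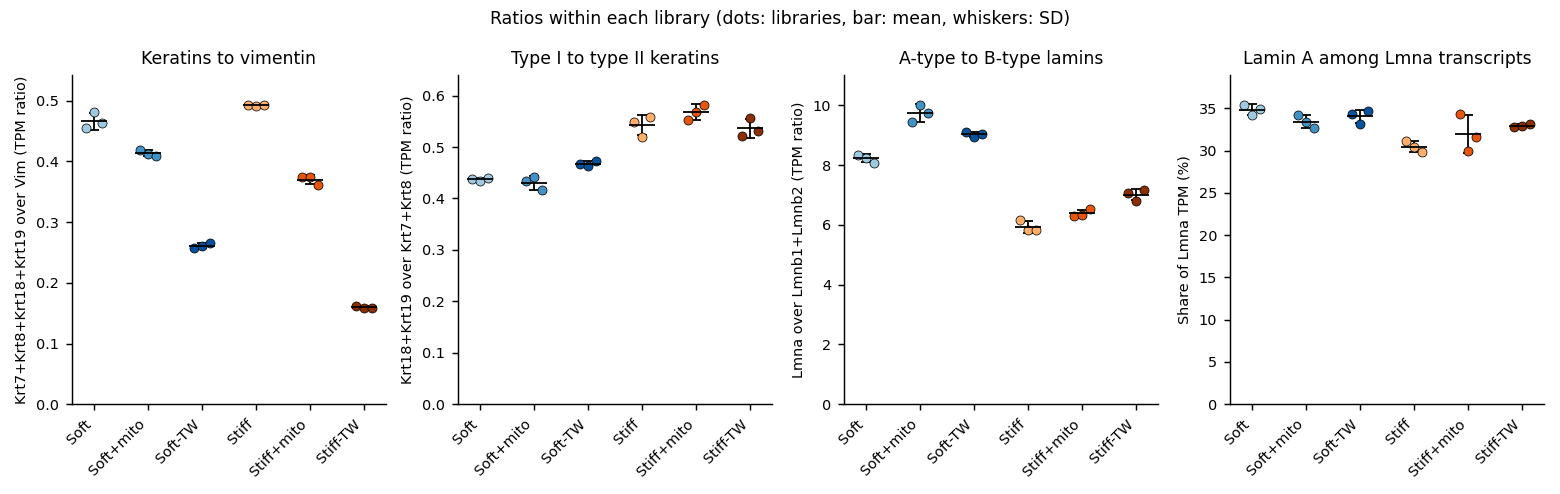
Ratios computed within each library (vertical axes from 0) by group: keratins over vimentin, type I over type II keratins, A-type over B-type lamins (all from TPM) and the percent of Lmna TPM that came from the lamin A transcript. Dots are libraries, bars means of 3, whiskers SD. The keratin to vimentin ratio falls to 0.160 in Stiff-TW, and the lamin A to B ratio is lower in the 9 stiff than in the 9 soft libraries.

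Nes, encoding nestin, was lower on the stiff matrix. Its level was 61.0, 57.0 and 58.3 TPM in Soft, 62.8, 53.8 and 53.9 TPM in Soft+mito and 48.7, 46.6 and 46.0 TPM in Soft-TW, and lay between 40.1 and 45.2 TPM in all 9 stiff libraries. The 3 stiff groups overlapped with one another in the order of their means. Every soft library was above every stiff one, narrowly, with the lowest soft at 46.0 TPM and the highest stiff at 45.2 TPM. As for Krt8, the share of all genes that separate in this way was not computed. Nes fell to 0.748-fold in Stiff against Soft (log2 fold change -0.42 ± 0.049, adjusted p = 2.66e-06), to 0.761-fold in Stiff+mito against Soft+mito (-0.39 ± 0.048, adjusted p = 3.14e-06) and to 0.897-fold in Stiff-TW against Soft-TW (-0.16 ± 0.050, adjusted p = 0.015). The last call was lost without the first Soft-TW library (log2 fold change -0.13). With TW Nes fell to 0.860-fold on the soft matrix (-0.22 ± 0.048, adjusted p = 0.00116) and differed by 0.04 ± 0.051 on the stiff matrix (adjusted p = 0.45), and the interaction was 0.26 ± 0.070 (adjusted p = 0.00815). With mito Nes did not pass on either matrix (adjusted p = 0.452 and 0.272), but on the stiff one, where the value was 0.08, it passed when low counts were not filtered or only the compared groups were fitted.

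Lmna, which encodes lamins A and C, was the most abundant lamin gene. Its level was 480, 481 and 483 TPM in Soft, 535, 516 and 518 TPM in Soft+mito and 383, 369 and 388 TPM in Soft-TW. On the stiff matrix it was 356, 350 and 359 TPM in Stiff, 337, 357 and 355 TPM in Stiff+mito and 371, 383 and 376 TPM in Stiff-TW. The Soft and Soft+mito libraries stood above all others, the Stiff and Stiff+mito libraries overlapped, and so did the libraries of the TW groups.

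Lmna was lower on the stiff matrix in both conditions without TW. It fell to 0.763-fold in Stiff against Soft (log2 fold change -0.39 ± 0.021, adjusted p = 9.32e-33) and to 0.660-fold in Stiff+mito against Soft+mito (-0.60 ± 0.021, adjusted p = 7.46e-49). In Stiff-TW against Soft-TW the log2 fold change was 0.00 ± 0.021, with an approximate interval of -0.04 to 0.04 (adjusted p = 0.994). The differences of Lmna with mito and with TW depended on the matrix. With mito it rose 1.15-fold on the soft matrix (0.20 ± 0.021, adjusted p = 8.47e-15), against 0.00 ± 0.022 on the stiff one (interval -0.05 to 0.04, adjusted p = 0.914), a difference of -0.21 ± 0.030 (adjusted p = 1.65e-08). Mean TPM was 481 in Soft and 523 in Soft+mito, a smaller rise than that of the scaled counts. On the stiff matrix it was 355 in Stiff and 350 in Stiff+mito, so the difference was less negative in TPM. With TW Lmna fell to 0.848-fold on the soft matrix (-0.24 ± 0.021, adjusted p = 1.41e-18) and rose 1.11-fold on the stiff one (0.15 ± 0.022, adjusted p = 4.76e-10), a difference of 0.39 ± 0.030 (adjusted p = 1.42e-21).

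Most of the Lmna signal came from a pair of transcripts. The lamin C transcript, of 574 codons, had a mean of 274 TPM over the 18 libraries and the lamin A transcript, of 665 codons, a mean of 136 TPM. Lamin A made up 35.4%, 34.2% and 34.9% of Lmna TPM in the Soft libraries and 31.1%, 30.4% and 29.8% in the Stiff libraries, without overlap. With mito the shares were 34.2%, 33.4% and 32.6% on the soft matrix and 34.3%, 29.9% and 31.6% on the stiff matrix, which overlapped. With TW they were 34.3%, 33.2% and 34.7% on the soft and 32.8%, 32.9% and 33.2% on the stiff matrix, the lowest soft value above the highest stiff value by less than 0.1 points. Over the 3 conditions the share was lower on the stiff matrix, with a mean difference of -2.32 points (exact permutation within conditions, p = 0.00425, adjusted p = 0.00857), with differences of -4.40, -1.45 and -1.12 points without addition, with mito and with TW. The difference with mito rested on single libraries, being -2.64 points without the first and -0.44 points without the second Stiff+mito library. Mito and TW gave mean differences of 0.02 and 0.85 points (adjusted exact permutation p = 0.985 and 0.246). Both averages joined opposite signs. With mito the difference was -1.45 points on the soft and 1.49 points on the stiff matrix, the latter 0.30 points without the first Stiff+mito library. With TW it was -0.79 points on the soft and 2.48 points on the stiff matrix, where the Stiff-TW and Stiff libraries did not overlap. The matrices were not tested singly. These shares rest on the authors' division of reads among transcripts that share most of their exons.

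Lmnb1, a B-type lamin gene on chromosome 18, stood apart in 1 group. Its level was 30.1, 29.8 and 30.3 TPM in Soft, 30.8, 28.5 and 28.9 TPM in Soft+mito and 21.3, 21.7 and 21.0 TPM in Soft-TW. On the stiff matrix it was 29.0, 30.0 and 30.2 TPM in Stiff, 27.3, 28.4 and 28.7 TPM in Stiff+mito and 28.4, 31.6 and 28.7 TPM in Stiff-TW. The 3 Soft-TW libraries were below the other 15, and the neighbouring groups among the other 5 overlapped. Lmnb1 fell to 0.767-fold in Soft-TW against Soft (log2 fold change -0.38 ± 0.048, adjusted p = 2.08e-11) and was 1.40-fold higher in Stiff-TW than in Soft-TW (0.49 ± 0.048, adjusted p = 5.57e-16). The TW by matrix interaction was 0.42 ± 0.066 (adjusted p = 7.98e-08). None of its other comparisons passed: Stiff against Soft gave 0.07 ± 0.045 (adjusted p = 0.2) and Stiff-TW against Stiff 0.04 ± 0.045 (adjusted p = 0.465).

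Lmnb2, the other B-type lamin gene, was lower with mito and with TW. Its level was 27.4, 28.5 and 29.6 TPM in Soft, 25.8, 23.0 and 24.3 TPM in Soft+mito and 20.7, 19.5 and 21.8 TPM in Soft-TW. On the stiff matrix it was 29.0, 30.2 and 31.5 TPM in Stiff, 26.2, 28.1 and 25.8 TPM in Stiff+mito and 24.2, 24.7 and 23.7 TPM in Stiff-TW. The Soft-TW libraries were the lowest, and each of the other 5 groups overlapped with its neighbour in the order. With TW Lmnb2 fell to 0.784-fold on the soft matrix (log2 fold change -0.35 ± 0.047, adjusted p = 2.3e-10) and to 0.824-fold on the stiff matrix (-0.28 ± 0.045, adjusted p = 3.69e-08), and the difference between the matrices, 0.07 ± 0.066, did not pass (adjusted p = 0.423).

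With mito the fall of Lmnb2 was to 0.885-fold on the stiff matrix (-0.18 ± 0.044, adjusted p = 7.46e-04) and to 0.914-fold on the soft matrix (-0.13 ± 0.045, adjusted p = 0.024). The call on the soft matrix was lost without the second Soft library (-0.12), the third Soft library (-0.10) or the second Soft+mito library (-0.08), and with DESeq2. Lmnb2 was the only tested member that passed as higher on the stiff matrix without addition, by 1.13-fold (0.17 ± 0.044, adjusted p = 4.5e-04). That call was lost on the TPM scale, where the value was 0.08. With mito it was higher on the stiff matrix by 0.13 ± 0.046 (adjusted p = 0.0126), a call lost without the second Soft+mito or the second Stiff+mito library and with DESeq2, and with TW by 0.24 ± 0.049 (adjusted p = 8.47e-06).

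The proportion of A-type to B-type lamin RNA differed between the matrices in every condition. Lmna over the sum of Lmnb1 and Lmnb2 in TPM was 8.35, 8.25 and 8.08 in the Soft libraries, 9.45, 10.0 and 9.75 in Soft+mito and 9.12, 8.95 and 9.05 in Soft-TW. On the stiff matrix it was 6.15, 5.82 and 5.82 without addition, 6.30, 6.31 and 6.52 with mito and 7.06, 6.81 and 7.17 with TW. All 9 stiff libraries were below all 9 soft libraries. The mean log2 difference was -0.48 (two-sided exact permutation within conditions, p = 0.00025, the smallest possible, adjusted p = 0.0015), made up of -0.47 without addition, -0.61 with mito and -0.37 with TW. The ratio was also higher by 0.17 with mito and by 0.19 with TW on the log2 scale (exact permutation p = 0.005, the smallest possible, adjusted p = 0.00857 each).

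**Figure D4:**
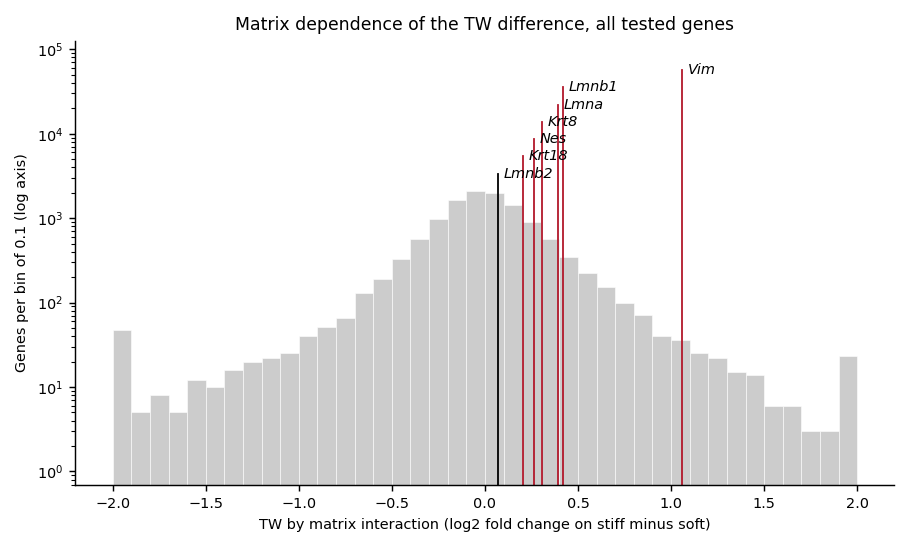
Histogram of the TW by matrix interaction (horizontal axis, log2 fold change with TW on the stiff matrix minus that on the soft matrix) over all 12245 tested genes, on a log vertical axis of genes per bin. Lines mark the 7 tested members, red where the adjusted p was under 0.05, and their heights only separate the names. The 63 genes beyond 2 in either direction are in the end bins. All 7 members lie above 0, from 0.07 for Lmnb2 to 1.06 for Vim.

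Read over the 7 tested members together, the calls stood as follows against the background of all tested genes. In Stiff against Soft 5 members were lower and 1 higher. Of all genes 53.8% passed there, 29.1% higher and 24.7% lower, and on the TPM scale 18.9% were higher and 34.7% lower. In Stiff+mito against Soft+mito again 5 members were lower and 1 higher, where 63.5% of genes passed (32.7% higher, 30.8% lower). In Stiff-TW against Soft-TW 3 were higher and 2 lower, where 54.3% passed (27.6% higher, 26.7% lower).

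With mito the members that passed were mostly higher. In Soft+mito against Soft 4 were higher and 1 lower, where 26.7% of genes passed, 14.8% higher and 11.9% lower. On the TPM scale 3 members passed, and 3.75% of genes were higher and 26.3% lower. In Stiff+mito against Stiff 3 members were higher and 1 lower, where 33.5% passed (15.6% higher, 17.8% lower).

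With TW the members differed in number of calls between the matrices by edgeR. In Soft-TW against Soft all 7 passed, 6 of them lower. Of all genes 56.9% passed there, 28.9% higher and 28.0% lower, and on the TPM scale 17.1% were higher and 42.1% lower. In Stiff-TW against Stiff 2 members were higher and 1 lower, where 69.6% of genes passed (35.5% higher, 34.1% lower). On the TPM scale 5 members passed there, with Krt8 and Krt18 added as lower, and 67.9% of genes passed, 29.8% higher and 38.1% lower.

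For the differences between the matrices, 1 member was positive and 1 negative with mito. Of all genes 23.6% passed there, 10.4% positive and 13.1% negative, and on the TPM scale 17.0% were positive and 4.33% negative. With TW 6 of 7 members passed and all 6 were positive. Of all genes 36.1% passed there, 16.4% positive and 19.7% negative, and on the TPM scale 20.9% were positive and 12.8% negative. The median of the 7 members was 0.31 for the TW by matrix interaction, against -0.01 over all tested genes. In Stiff against Soft it was -0.39 against 0.01, and in Soft-TW against Soft -0.24 against 0.00.

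The range of the 6 group means on the log2 scale was 1.62 for Vim, and 507 of the tested genes (4.14%) had a larger one. It was 0.69 for Krt8, 0.60 for Lmna, 0.52 for Lmnb2, 0.49 for Lmnb1, 0.47 for Nes and 0.37 for Krt18, which 29.9% to 66.4% of genes exceeded. The nearest patterns among the members, by the Euclidean distance between their centred group means of log2 CPM (counts scaled to library size) over 6 groups, were those of Nes and Lmna (0.19), Krt18 and Nes (0.21) and Krt8 and Nes (0.22). Lmnb1 and Lmnb2 were 0.28 apart and Krt8 and Krt18 0.38 apart, while Vim was at least 1.25 from each of the others.

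By the same measure, the gene with the pattern most like Vim was P4ha3, a subunit of collagen prolyl hydroxylase (distance 0.22), which averaged 20.6 TPM in Soft, 27.4 in Soft-TW, 15.5 in Stiff and 41.8 in Stiff-TW. Rnf165 (0.30) and Arsj (0.36) followed. The genes nearest to Krt8 were Tspan5, a tetraspanin (0.06), Enc1 (0.06) and Pnp, purine nucleoside phosphorylase (0.09). Those nearest to Lmna were Msrb1 (0.10), Anxa1, encoding annexin A1 (0.13), and Nme7 (0.14). Those nearest to Lmnb2 were Mcm7, a subunit of the replicative helicase (0.07), Mboat1 (0.08) and Eri2 (0.09). Mcm7 averaged 95.3 TPM in Soft, 69.4 in Soft-TW, 104 in Stiff and 82.1 in Stiff-TW.

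The remaining keratins were nearly absent from these libraries. Of the 23 other keratin genes listed, 18 were in the table and only Krt80 passed the filter, at 4.27 to 6.65 TPM. The other 17 reached at most 0.53 TPM, the highest value being that of Krt16. Krt80 fell in Soft-TW against Soft (log2 fold change -0.27 ± 0.099, adjusted p = 0.0147) and passed in no other comparison. Of 12 other intermediate filament genes 6 were tested. In Stiff against Soft 2 were higher and 1 lower, and likewise in Stiff+mito against Soft+mito. Des, desmin, was the weakly expressed muscle filament gene among the higher ones (0.62 ± 0.21 and 0.67 ± 0.22), and Prph, peripherin, a filament gene of neurons, the other (0.55 ± 0.16 and 0.69 ± 0.15). Iffo2, a filament family orphan, was lower on the stiff matrix without addition (-0.18 ± 0.048, adjusted p = 0.00101) and with mito (-0.13 ± 0.048, adjusted p = 0.0139), and no gene of this list passed with mito on either matrix. With TW 2 genes rose and none fell on each matrix. Prph rose by 0.57 ± 0.16 and 0.95 ± 0.13 on the log2 scale, reaching 8.22 TPM in Stiff-TW from 4.39 TPM in Stiff, and Iffo1 by 0.64 ± 0.24 and 1.14 ± 0.24. Prph was also higher in Stiff-TW than in Soft-TW (0.93 ± 0.13), the only call of the list there. Des, Prph and Iffo1 were named after their values were seen.

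Among the linkers that join filaments to junctions and to other parts of the cytoskeleton, 13 of 16 genes were tested. For the counts of this and the other lists, 53.8% of all tested genes passed in Stiff against Soft and 54.3% in Stiff-TW against Soft-TW. In Soft-TW against Soft 56.9% passed, and in Stiff-TW against Stiff 69.6%. With TW 3 rose and 5 fell on the soft matrix, and 5 rose and 4 fell on the stiff one. Plec, encoding plectin, the linker that ties vimentin and keratin filaments to other structures, fell with TW by similar amounts on both matrices (log2 fold changes -0.41 ± 0.020 and -0.43 ± 0.021), from 67.0 to 46.5 TPM on the soft and from 59.7 to 43.4 TPM on the stiff. Pkp3, a desmosomal plakophilin, rose with TW (0.50 ± 0.075 and 0.84 ± 0.073). In Stiff against Soft 4 were higher and 3 lower. Jup, plakoglobin, was lower in Stiff than in Soft (-0.50 ± 0.047, adjusted p = 6.35e-17), and Dst, dystonin, was higher (0.26 ± 0.021, adjusted p = 1.23e-21). The desmosomal cadherins Dsg2 and Dsc2, named after their values were seen, did not exceed 0.02 and 0.04 TPM.

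Of 18 nuclear envelope genes that work with the lamins, 17 were tested. In Stiff against Soft 6 rose and 5 fell, and in Stiff-TW against Soft-TW 10 rose and 4 fell. With TW 7 rose and 4 fell on the soft matrix, and 9 rose and 3 fell on the stiff one. Lbr, the lamin B receptor, was higher in Stiff than in Soft (log2 fold change 0.35 ± 0.035, adjusted p = 5.93e-16) and higher in Stiff-TW than in Soft-TW (0.46 ± 0.037, adjusted p = 8.17e-21), and fell in Soft-TW against Soft (-0.26 ± 0.037, adjusted p = 3.16e-09). Tmpo, which encodes the lamina-associated polypeptides, had the same signs in these comparisons (0.20, 0.34 and -0.14). Tor1aip2, on the same list, went the other way between the matrices with TW and with mito. It was lower in Stiff-TW than in Soft-TW (-0.29 ± 0.026, adjusted p = 4.27e-18) and in Stiff+mito than in Soft+mito (-0.30 ± 0.026, adjusted p = 4.31e-19). Lemd2, an inner membrane protein, rose with TW on both matrices (0.43 ± 0.038 and 0.61 ± 0.039). Nrm, nurim, rose with TW on the stiff matrix (1.05 ± 0.088, adjusted p = 2.96e-20) from 12.6 to 24.7 TPM, and its interaction was 0.95 ± 0.13 (adjusted p = 5.4e-10).

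All 5 genes for the enzymes that farnesylate and trim the lamin precursors were tested. With TW 2 rose and 1 fell on each matrix, and in Stiff against Soft 1 was higher and 3 were lower. Zmpste24, the protease that matures prelamin A, fell with TW on the soft matrix (log2 fold change -0.26 ± 0.036, adjusted p = 4.89e-10) and on the stiff matrix (-0.56 ± 0.039, adjusted p = 5.01e-25), with an interaction of -0.29 ± 0.054 (adjusted p = 3.26e-06). It averaged 45.8 TPM in Soft, 35.3 in Soft-TW, 40.6 in Stiff and 26.8 in Stiff-TW. Fntb, the beta subunit of farnesyltransferase, rose with TW on both matrices (0.70 ± 0.071 and 0.44 ± 0.065) and was higher in Stiff than in Soft (0.47 ± 0.073, adjusted p = 2.71e-08), where Rce1 (-0.20), Icmt (-0.11) and Zmpste24 (-0.09) were lower.

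The 14 tested genes of a cell cycle list are given beside the B-type lamins, whose levels they accompanied in part. In Soft-TW against Soft 12 of 14 fell and 1 rose (median log2 fold change -0.26), and in Stiff-TW against Soft-TW 12 rose and 2 fell (median 0.59). Top2a, topoisomerase II alpha, was higher in Stiff-TW than in Soft-TW by 0.80 ± 0.022 on the log2 scale, and Mki67, the proliferation marker Ki-67, by 0.73 ± 0.023. In Stiff-TW against Stiff 8 rose and 5 fell. Among those, Mki67 rose (0.40 ± 0.023) and the helicase subunits Mcm2, Mcm3 and Mcm5 fell (-0.70, -0.61 and -0.63). In Stiff against Soft 10 rose and 3 fell, while Lmnb1 did not pass the test there. The part of the cell cycle in the lamin values was not tested.

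Neural progenitor markers are given beside Nes, which is widely used as one. Of the 7 such genes that were listed in the files, 3 were tested. Of these, 1 was higher and 2 were lower in Stiff against Soft and in Stiff+mito against Soft+mito, in Stiff-TW against Stiff all 3 were higher, and in Stiff-TW against Soft-TW 1 was higher and none lower. Sox2, a transcription factor of stem and progenitor cells, fell in Stiff against Soft (log2 fold change -1.21 ± 0.084, adjusted p = 4.94e-25) and rose in Stiff-TW against Stiff (1.95 ± 0.076, adjusted p = 5.37e-45), where Nes did not pass. In Soft-TW against Soft, where Nes fell, Sox2 (0.79 ± 0.062) and Msi1 (0.46 ± 0.13) were higher and none was lower. With mito Sox2 alone passed, as higher on the soft (0.42 ± 0.065) and the stiff matrix (0.32 ± 0.097). Tubb3, a neuronal tubulin, also fell in Stiff against Soft (-0.29 ± 0.12), whereas Msi1, an RNA-binding protein of progenitors, was higher (0.53 ± 0.13, adjusted p = 1.99e-04). Msi1 was also higher in Stiff+mito than in Soft+mito (0.92 ± 0.13) and in Stiff-TW than in Soft-TW (0.35 ± 0.12), where Nes was lower. Sox2 ranged from 5.35 to 23.4 TPM over the libraries, and Pax6, named after its values were seen, did not exceed 0.06 TPM. None of the 4 endothelial markers in the table passed the filter, and 1 of 8 epithelial markers did.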

How the data were processed

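RNA from 18 libraries (6 groups of 3, assigned from the sample group in the labels) was sequenced as poly(A)-selected, strand-specific paired ends, per the labels' protocols. Per the file headers, the authors deposited estimated counts (expected counts) and TPM for 18397 genes and 64855 transcripts. The genome build is mm10, per the submitters' processing notes, whereas no source used here names the aligner, quantifier or annotation. Of the gene counts, 10.913% were not whole (tolerance 0.001), none of them a member's. Counts were rounded. A further 160 columns of values were not used. Gene counts matched the sum of their transcripts within 0.05.

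Replicates differed by more than sampling noise (chi-square per degree of freedom 1.19 to 2.16). edgeR 4.0.16 (R 4.3.3; filterByExpr, TMM factors 0.968 to 1.031, robust quasi-likelihood test, 18 libraries in 1 fit, Benjamini-Hochberg over 12245 genes, threshold 0.05) gave log2 fold changes. SE were approximated as the fold change over the square root of F. Tested alternatives were DESeq2 1.42.0, limma 3.58.1 on log2(TPM + 0.5) (added after the data were seen), glmTreat against 1.2-fold, library totals, no filter, only the compared groups, a replicate block and leaving out each library. The fit was tested on simulated data. Ratios used TPM and exact permutation tests, coded for this report with numpy 2.4.6, within conditions or matrices.

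Named genes were the 9 members, from each list up to 4 genes per comparison with the smallest adjusted p and a mean of at least 5 CPM, and, for members whose group means spanned at least 0.5 on the log2 scale, the 3 genes nearest in pattern. Exceptions are said where they occur. The members and lists were chosen with earlier results of these data known. The reads that Krt8 may share with annotated pseudogenes could not be separated here.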

Additional observations from a re-analysis of the deposited data

Results flagged for a closer look

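The members below are those whose difference with mito or with TW differed between the matrices in edgeR's interaction test. Each is given as the log2 fold change on the stiff matrix minus that on the soft matrix. With mito, the difference was 0.206 for Vim, which rose on both matrices, and -0.208 for Lmna, which rose on the soft matrix and did not pass on the stiff one. With TW, the difference was 1.06 for Vim, which rose on both. It was 0.307 for Krt8, 0.205 for Krt18, 0.262 for Nes and 0.421 for Lmnb1, all of which fell with TW on the soft matrix and did not pass on the stiff one by edgeR, although Krt8 and Krt18 passed as lower there on the TPM scale (-0.05 and -0.07). It was 0.391 for Lmna, which fell on the soft and rose on the stiff matrix. The TW comparisons on the 2 matrices use separate libraries.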

How the results depend on the processing

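Vim kept its direction in all 9 comparisons under every alternative run, and its calls except against a 1.2-fold change in Soft+mito against Soft and for mito by matrix. Against a 1.2-fold change (glmTreat) fewer members passed: 0 in Soft+mito against Soft, 1 in Stiff+mito against Stiff, 3 in Soft-TW against Soft, 1 in Stiff-TW against Stiff, 2 in Stiff-TW against Soft-TW, 0 for mito by matrix and 3 for TW by matrix. In the same order, 188, 199, 1848, 4163, 1482, 113 and 892 of all 12245 genes passed against that change. On the TPM scale (limma) 3 passed in Soft+mito against Soft and 5 in Stiff-TW against Stiff, where 30.1% and 67.9% of all genes passed. Values near 0 changed sign on that scale: Lmnb1 in Stiff against Soft (-0.0165), Nes and Lmnb1 in Soft+mito against Soft (-0.0511 and -0.0335), Krt8 and Lmnb1 in Stiff-TW against Stiff (-0.0537, which passed, and -0.0083), and Krt8 and Lmnb2 for mito by matrix (0.0202 and 0.0464). The median of all genes on that scale was -0.10 in Soft-TW against Soft and -0.08 in Soft+mito against Soft, against 0.00 and 0.01 by edgeR. In Stiff-TW against Stiff, Krt8 was also below 0 with library totals (-0.0458), no filter (-0.0043), only the compared groups (-0.0037) and DESeq2 (-0.0074), and Nes (-0.0026) and Lmnb1 (-0.0099) with library totals. Leaving out 1 library at a time, values that changed sign ranged from -0.0152 to 0.0948 (Nes, Soft+mito against Soft), -0.0182 to 0.0234 (Lmna, Stiff+mito against Stiff), -0.0216 to 0.0092, -0.0325 to 0.0170 and -0.0182 to 0.0557 (Krt8, Krt18 and Lmnb1, Stiff-TW against Stiff), -0.0268 to 0.0144 (Lmna, Stiff-TW against Soft-TW), -0.0190 to 0.0909 (Nes, mito by matrix) and -0.575 to 0.525 points (lamin A share, mito). That share was -0.0433 points from estimated counts. The cause was not tested. DESeq2 called 2113 of 11241 genes in Soft+mito against Soft and 1815 of 10529 for mito by matrix, against 3274 and 2888 of 12245 by edgeR.

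Replicate numbers did not pair the libraries: deviations of same-numbered libraries correlated at -0.13 to 0.197, over 0.1 in 4 of 45 pairs. With a replicate block all 63 member values kept direction and call. In the ratio tests 5 no longer passed under the block. The mito and TW tests could give no p below 0.0312 there, so lamin A to B (0.175 with mito, 0.189 with TW) and keratin to vimentin (-0.294 with mito, -1.23 with TW) had an adjusted p of 0.0536. The stiff against soft difference of keratin to vimentin (-0.263) was lost with p = 0.0586 by exact permutation (adjusted 0.0879), where 0.00391 was possible.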
